A study of Mus musculus with 12 samples.

Results

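Uchl3, Cldn25, Npepl1, Klhl30 and Sapcd2 are 5 mouse genes chosen by their FPKM values in knockdown of Spi1 against scrambled controls in BV2 cells. They were taken by symbol from tables of 24058 entries with a unique name, and all 5 were found. All 5 are also among the 11224 entries whose FPKM averaged 1 or more across the 12 libraries, the set used for ranks and shares below. The difference between knockdown and scrambled controls is what brought them together, so it is given here as a description with no test. The study has a pair of control groups, and the question put to the 5 genes was whether each stood above both of them or only above low scrambled controls.

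BV2 is an immortalised line of mouse microglia, the resident macrophages of the brain, and all libraries come from this line, so no group is a primary cell. Spi1 encodes PU.1, the ETS family transcription factor that macrophages depend on. In the knockdown experiment cells carried a scrambled hairpin (scrambled control) or a short hairpin RNA against Spi1 (Spi1 knockdown). In the overexpression experiment they carried an empty construct (empty control) or a mouse Spi1 cDNA (Spi1 overexpression). Both manipulations were transient, cells were sorted by flow cytometry, and each of the 4 groups has 3 libraries of polyA RNA. The sources used here name no hairpin sequence and no time of harvest. Knockdown and overexpression have no control library in common, so a difference between the experiments and a difference between their controls cannot be told apart.

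The 5 genes belong to different families. Uchl3 encodes a small cysteine protease of the UCH family of deubiquitinases, which cuts ubiquitin and the ubiquitin-like protein NEDD8 from the C-terminal side, and so helps to recycle them. Npepl1 encodes a putative aminopeptidase of the leucine aminopeptidase family, enzymes that trim residues from the N-terminus of peptides. Klhl30 encodes a Kelch-like protein, a family that includes substrate adaptors of CUL3 ubiquitin ligases, which are switched on by NEDD8. Sapcd2 encodes a protein that binds the spindle orientation factor LGN (gene Gpsm2) in dividing cells. Claudins are four-pass membrane proteins of tight junctions.

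The name Cldn25 needed checking. RefSeq lists it as a synonym of Cldnd1, on chromosome 16, and of Cldn25-ps, on chromosome 9, whose whole span is 786 bases. The length behind the FPKM values of the Cldn25 entry, recovered from the values, was 2194 bases, more than Cldn25-ps could supply, and neither Cldnd1 nor Cldn25-ps has an entry of its own in the tables. The entry is therefore read here as Cldnd1, which encodes a claudin domain protein, and it keeps its deposited name below.

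In mm10 with the GENCODE M21 annotation, Uchl3 (ENSMUSG00000022111.9) lies on the plus strand of chromosome 14, bases 101653967 to 101696125. Cldnd1 lies on chromosome 16 at 58727910 to 58734251 and Npepl1 on chromosome 2 at 174110349 to 174123070. Klhl30 lies on chromosome 1 at 91351016 to 91362416 and Sapcd2 on chromosome 2 at 25372321 to 25378213, all on the plus strand. No other annotated gene overlaps the exons of any of the 5, which matters because the library kit does not mark strand. Uchl3 has a near copy, Uchl4, a gene of 1 exon on chromosome 9. Their coding sequences are the same at 672 of 690 aligned bases. The first 100 coding bases, which is the length of a read here, are shown because they let a reader see how alike the genes are. This stretch differs between them at 2 bases, so a read of all of it would fit only 1 gene exactly. Capitals mark the bases that differ.
Uchl3: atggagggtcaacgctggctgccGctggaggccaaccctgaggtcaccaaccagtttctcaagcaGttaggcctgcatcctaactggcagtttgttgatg
Uchl4: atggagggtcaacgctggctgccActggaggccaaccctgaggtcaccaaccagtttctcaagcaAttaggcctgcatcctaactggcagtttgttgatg
Of the 804 windows of 100 bases in the main Uchl3 transcript, 121 occur whole in Uchl4, so some reads cannot be placed between them, and the rule by which the authors counted such reads is not stated.

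The promoters of Uchl3, Cldnd1 and Npepl1 are shown because these genes had the most similar levels over the 12 libraries. Each sequence runs from 250 bases before to 50 bases after the start, from RefSeq on GRCm38.p6, plus strand, at chr14:101653717-101654016, chr16:58727660-58727959 and chr2:174110101-174110400. A promoter was in the table for 4 of the 5 genes, with Klhl30 as the one without. Capitals mark matches, on either strand, to any of GAGGAAGT (PU.1), CGGAAG (an ETS core), CCAAT (NFY), TTTGAA (the CHR element of mitotic genes), GGGCGG (SP1) and GCGCATGC (NRF1).
Uchl3: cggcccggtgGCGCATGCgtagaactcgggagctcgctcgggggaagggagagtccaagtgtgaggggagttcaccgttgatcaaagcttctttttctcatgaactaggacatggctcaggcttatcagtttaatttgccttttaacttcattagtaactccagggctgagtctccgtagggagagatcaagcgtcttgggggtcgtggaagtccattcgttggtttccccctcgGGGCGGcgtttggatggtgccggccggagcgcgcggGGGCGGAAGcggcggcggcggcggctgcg
Cldnd1: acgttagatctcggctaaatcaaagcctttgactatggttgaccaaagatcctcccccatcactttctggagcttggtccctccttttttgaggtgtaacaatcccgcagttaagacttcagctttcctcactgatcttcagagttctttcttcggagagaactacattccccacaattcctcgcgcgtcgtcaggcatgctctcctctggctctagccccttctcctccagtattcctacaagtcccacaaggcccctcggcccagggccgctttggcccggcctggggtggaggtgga
Npepl1: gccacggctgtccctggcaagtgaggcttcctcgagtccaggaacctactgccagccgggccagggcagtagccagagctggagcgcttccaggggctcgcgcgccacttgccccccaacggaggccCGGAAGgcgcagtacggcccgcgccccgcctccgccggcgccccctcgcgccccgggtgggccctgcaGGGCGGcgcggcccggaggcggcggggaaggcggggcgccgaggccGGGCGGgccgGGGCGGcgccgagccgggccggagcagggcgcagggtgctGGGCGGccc
Uchl3 held 1 match to CGGAAG, 2 to GGGCGG and 1 to GCGCATGC, and its CGGAAG overlaps the second GGGCGG. Npepl1 held 1 match to CGGAAG and 4 to GGGCGG, Sapcd2 held 1 match to GGGCGG, and Cldnd1 held none of the 6. Over all 32851 promoters of this length, 16.9% held CGGAAG, 35.7% GGGCGG and 2.71% GCGCATGC. None of the 4 promoters held GAGGAAGT, which 3.20% of all promoters do, nor CCAAT (37.4%) nor TTTGAA (17.9%). The Sapcd2 window, chr2:25371785-25372084, ends before the GENCODE start of the gene at 25372321. Its matches and their absence therefore do not cover that start.

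The authors deposited FPKM, reads per kilobase of gene and per megareads of the library, in a table for each experiment. Recovered read totals were 22.3 to 33.1 megareads per library. Spi1 was at 159 to 169 FPKM in the scrambled controls, 42.4 to 52.3 in knockdown, 117 to 158 in the empty controls and 206 to 287 in overexpression, so the groups did not overlap in either experiment. Of 15 microglia and macrophage markers 12 were at a mean of 1 FPKM or more in each group, with a summed level of 2197 to 2421 FPKM in knockdown and 2715 to 2843 in scrambled controls, and 7 of the 12 fell and 1 rose in knockdown, against 8.86% and 17.4% of all genes (limma, Benjamini-Hochberg (BH) adjusted p under 0.05). Markers of neurons and other glia summed to at most 0.777 FPKM and those of fibroblasts and muscle to at most 1.04 FPKM, with Rbfox3, Snap25, Syt1 and Aqp4 at 0 throughout. Markers of epithelial and endothelial cells summed to 5.02 to 6.32 FPKM in scrambled controls, 6.36 to 7.17 in knockdown, 3.85 to 6.34 in empty controls and 3.91 to 6.49 in overexpression. Most of this was Vwf, the von Willebrand factor gene, with means of 5.42 ± 0.631, 6.44 ± 0.416, 4.82 ± 1.19 and 4.77 ± 1.25 FPKM in these groups (SD, n = 3 each). Vwf did not pass in knockdown (limma, BH adjusted p = 0.113) but was called higher when same-numbered libraries were fitted as blocks, and Epcam, Krt8 and Krt18 were at 0 in all groups. Their part in the results was not tested.

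Uchl3 had the largest gap between knockdown and scrambled controls on the log2(FPKM + 1) scale, whereas by the ratio of means Klhl30 was larger, at 4.22 against 3.06. Uchl3 stood at 11.9, 13.7 and 12.2 FPKM in the scrambled controls and at 35.2, 41.1 and 39.1 FPKM in knockdown. In the empty controls it stood at 36.8, 38.3 and 39.4 FPKM and in overexpression at 39.1, 40.4 and 37.8 FPKM. The 3 scrambled controls lay apart from the other 9 libraries, which spanned 35.2 to 41.1 FPKM with a coefficient of variation of 4.69%. The means were 12.6 ± 0.948 in scrambled controls, 38.5 ± 3.01 in knockdown, 38.2 ± 1.29 in empty controls and 39.1 ± 1.28 FPKM in overexpression (SD, n = 3 each). On the log2(FPKM + 1) scale, on which all differences below are given and which understates those of low genes, knockdown minus scrambled was 1.54, knockdown minus empty 0.01 and scrambled minus empty -1.53. In other words 99.4% of the distance from scrambled controls to knockdown was also the distance from scrambled to empty controls. Among the 11224 genes, that scrambled minus empty difference was the lowest but one. The scrambled libraries helped to choose Uchl3 and enter both distances, so the 99.4% and this rank are descriptions only. Knockdown was above the scrambled controls without overlap in 30.2% of the 11224 genes and in all 5 of the set, which is how they were picked. In bulk RNA, fewer cells of a kind and less RNA per cell cannot be told apart.

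Uchl4 followed Uchl3 at a far lower level. It was looked at after its values were seen, because of the shared sequence. It stood at 0.334, 0.911 and 0.670 FPKM in scrambled controls, 1.39 to 1.67 in knockdown, 1.26 to 1.62 in empty controls and 1.39 to 1.79 in overexpression. That is 10 to 26 recovered reads per scrambled library, against 276 to 312 for Uchl3, so reads of Uchl3 placed on its copy cannot be told apart from Uchl4 mRNA.

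The Cldn25 entry had the same shape. Its levels were 5.94, 5.73 and 6.50 FPKM in scrambled controls, 12.6, 15.3 and 14.5 in knockdown, 13.4, 12.8 and 13.3 in empty controls and 13.1, 13.0 and 12.9 in overexpression. The scrambled controls were again the lowest 3 libraries, and knockdown overlapped the empty controls through its library 1 alone. Without that library, knockdown lay above both control groups. Knockdown minus scrambled was 1.10, knockdown minus empty 0.09 and scrambled minus empty -1.01, so 91.7% of the first difference was also seen between the controls. The means of knockdown and empty controls, 14.2 ± 1.37 and 13.2 ± 0.332 FPKM (SD, n = 3 each), differed by less than the SD of knockdown.

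Npepl1 fell between the patterns. It stood at 24.0, 25.4 and 26.2 FPKM in scrambled controls and 45.4, 47.0 and 50.5 in knockdown, against 41.1, 40.2 and 45.3 in empty controls and 41.4, 40.3 and 41.0 in overexpression. Scrambled controls lay below all other libraries and knockdown lay above all 6 controls, the latter by a margin of 45.4 against 45.3 FPKM. Knockdown minus scrambled was 0.89, scrambled minus empty -0.72 and knockdown minus empty 0.17, so 80.9% of the first difference was also a difference between the controls. The means of knockdown and empty controls were 47.6 ± 2.60 and 42.2 ± 2.69 FPKM (SD, n = 3 each), a gap of about the size of their SDs added together.

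Sapcd2 was low in the scrambled controls and scattered elsewhere. It stood at 4.17, 3.99 and 6.28 FPKM in scrambled controls, 14.5, 11.3 and 12.8 in knockdown, 8.91, 9.19 and 15.0 in empty controls and 8.29, 7.44 and 12.8 in overexpression. Scrambled controls were again the lowest, and the knockdown range lay inside that of the empty controls, whose library 3 was the highest of all 12. Without that library, knockdown lay above both control groups and knockdown minus empty was 0.46, while it was 0.11 without empty control 1, 0.13 without empty control 2 and 0.15 without knockdown 1. With all libraries, knockdown minus scrambled was 1.27, scrambled minus empty -1.04 and knockdown minus empty 0.23, and 81.5% of the first difference was seen between the controls. The 9 libraries outside the scrambled group had a coefficient of variation of 25.1%, against 4.69% for Uchl3.

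Klhl30 alone among the 5 was as low in scrambled as in empty controls. Its levels were 0.475, 0.647 and 0.869 FPKM in scrambled controls, 0.667, 0.415 and 1.10 in empty controls and 0.422, 0.299 and 0.854 in overexpression. In knockdown it stood at 2.77, 2.77 and 2.87 FPKM. The 3 knockdown libraries lay above all 9 others, with 222 to 287 recovered reads against 25 to 92. Mean levels were 2.80 ± 0.0619 in knockdown, 0.664 ± 0.197 in scrambled and 0.726 ± 0.344 FPKM in empty controls (SD, n = 3 each), which makes knockdown 4.22 times the scrambled and 3.86 times the empty mean. Knockdown minus scrambled was 1.20, knockdown minus empty 1.16 and scrambled minus empty -0.04, and 3.42% of the first difference was seen between the controls. In knockdown minus empty it ranked 12th from the top of 11224 genes. The knockdown libraries helped to choose Klhl30 and alone brought its mean over 1 FPKM, so nothing is read from this rank. No single library, when left out, changed the pattern of Klhl30, Uchl3 or Npepl1.

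**Figure D1:**
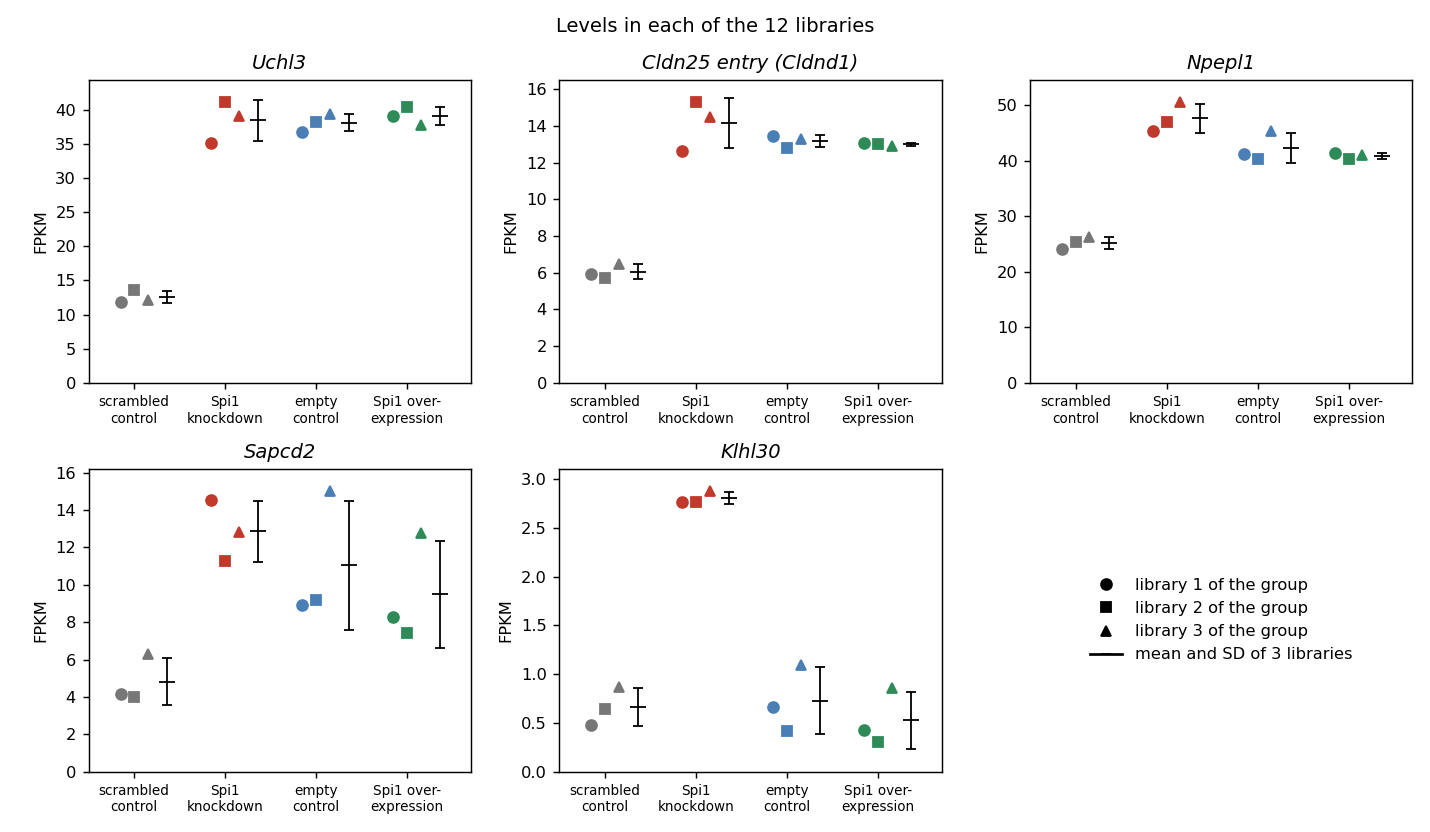
Level in FPKM (vertical axis, from 0) of each gene in the 4 groups (horizontal axis); a symbol is a library and the bar is the mean and SD of 3 libraries. Uchl3, the Cldn25 entry, Npepl1 and Sapcd2 are lowest in the scrambled controls, with Sapcd2 scattered from 7.44 to 15.0 FPKM elsewhere and Npepl1 highest in knockdown, while Klhl30 is high in knockdown at 2.77 to 2.87 FPKM and below 1.10 in all other libraries.

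These patterns were counted over all genes for the background. Knockdown lay above both control groups in 7.86% of the 11224 genes, and 2 of the 5 (Klhl30 and Npepl1) did so. Scrambled controls lay below the other 3 groups in 8.34%, and 4 of the 5 did so. With the added condition that knockdown overlaps the empty controls the share was 6.76%, met by Uchl3, the Cldn25 entry and Sapcd2. As the 5 were picked for high knockdown or low scrambled values, nothing is read from their counts. Over all genes the median was -0.04 for scrambled minus empty and 0.03 for knockdown minus empty. Counting without knockdown library 1 gave 1433 in place of 882 genes with knockdown above both control groups, and median-of-ratios scaling gave 603. For low scrambled controls with overlap, scaling gave 625 in place of 759 genes, and leaving out single libraries gave 628 to 1129.

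Among genes that passed limma as higher in knockdown at a BH adjusted p of 0.05 and at least 2-fold on the fitted scale, 41 were in the same set. Of these 25 (61%) had scrambled controls below the other 3 groups and 22 (53.7%) had the low scrambled pattern with overlap. Knockdown lay above both control groups in 9 (22%). The 41 were picked by knockdown over these same scrambled controls, which favours all 3 patterns, so nothing is read from these shares. The 9 were, by their distance over the empty controls, Hp at 3.44, Pdcd1 at 1.71, Serpinb1a at 1.42, Klhl30 at 1.16, Dmpk at 1.07, Tspan32 at 0.87, Mir7039 at 0.83, Cks2 at 0.43 and Lmnb1 at 0.43. Hp encodes haptoglobin, Pdcd1 the inhibitory receptor PD-1, Serpinb1a an inhibitor of neutrophil serine proteases and Dmpk a protein kinase known from muscle. Klhl30 was thus the fourth of the 9, at a lower level than all but Mir7039, whose knockdown mean was also 2.80 FPKM.

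**Figure D2:**
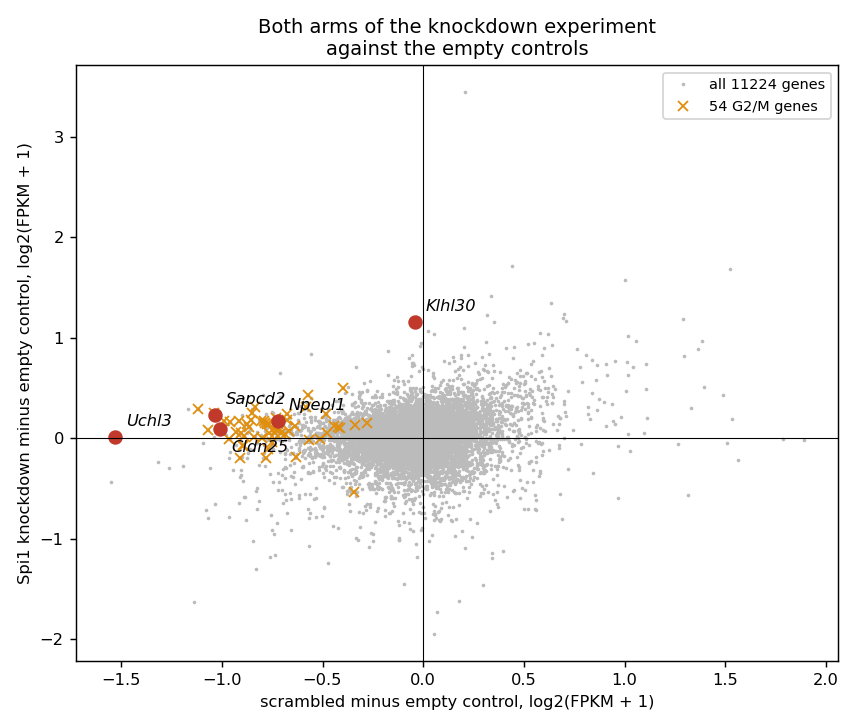
Scrambled minus empty controls (horizontal axis) against knockdown minus empty controls (vertical axis), both as differences of mean log2(FPKM + 1), with 1 point per gene; 5 genes are named and 54 G2/M genes are crosses. Uchl3 lies at -1.53 and 0.01, far left on the horizontal line, whereas Klhl30 lies at -0.04 and 1.16, on the vertical line, and Sapcd2 lies among the G2/M genes.

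The contrast of overexpression with empty controls had no part in choosing the 5 genes and was tested with limma over the 11217 genes that averaged 1 FPKM or more in that experiment. No gene passed (0% of genes higher and 0% lower at a BH adjusted p of 0.05). Spi1 itself differed by 0.81 (limma, unadjusted p = 0.00216), and passed with the replicate number as a block (limma, BH adjusted p = 0.0357). At an unadjusted p under 0.05 there were 122 genes, and limma-voom on recovered reads called 0, with 94 at an unadjusted p under 0.05. With the block limma called 9 genes higher and 4 lower, with 1577 at an unadjusted p under 0.05. Overexpression lay above the empty controls without overlap in 1.65% of the 11224 genes and below them in 2.42%, and 0 of the 5 did either. Uchl3 differed by 0.03 (95% confidence interval -0.15 to 0.22, unadjusted p = 0.669 and BH adjusted p = 0.9999 in limma) and was higher in 2 of 3 same-numbered pairs. The Cldn25 entry differed by -0.02 (-0.19 to 0.16, unadjusted p = 0.816 in limma) and Npepl1 by -0.04 (-0.24 to 0.16, unadjusted p = 0.623 in limma). For these 3 genes the intervals, which cover the spread between libraries, do not reach the distance between the controls. That distance crosses the experiments and uses scrambled libraries that helped to choose the genes, so nothing further is read from it. Sapcd2 differed by -0.19 with a wide interval of -0.81 to 0.42 (unadjusted p = 0.471 and BH adjusted p = 0.9999 in limma) and was lower in 3 of 3 pairs. Its difference was 0.03 without empty control 3 and -0.41 without overexpression 3, and with the block the interval was -0.32 to -0.07 (limma, BH adjusted p = 0.234). Klhl30 averaged under 1 FPKM in this experiment and so was not among the 11217 genes. It was at 0.726 ± 0.344 FPKM in empty controls and 0.525 ± 0.291 in overexpression (SD, n = 3 each), again lower in 3 of 3 pairs. Without the filter on low genes its difference was -0.18 (limma, unadjusted p = 0.419 and BH adjusted p = 0.9999), and with the block as well it did not pass (limma, unadjusted p = 0.00664 and BH adjusted p = 0.287).

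Over the 12 libraries the closest pair of the 5 was Uchl3 and the Cldn25 entry, with a Pearson r of 0.985 of log2(FPKM + 1), followed by the Cldn25 entry and Npepl1 at 0.977. Klhl30 had r = 0.274 with Uchl3, and its closest was Sapcd2 at 0.603. These values, like those below, mostly restate which groups are high or low, share library totals and carry no p. The genes most like Uchl3 were Trmt10b (r = 0.986), which encodes a tRNA methyltransferase, Ints10 (0.978), a subunit gene of the Integrator complex, and Prps1, which encodes an enzyme that makes phosphoribosyl pyrophosphate. Trmt10b was at 1.55 to 1.71 FPKM in scrambled controls and 2.86 to 3.47 in all other libraries. Ints10 was at 13.2 ± 0.944 FPKM in scrambled controls, against 21.6 ± 1.39 in knockdown, 20.9 ± 0.0973 in empty controls and 20.4 ± 0.673 in overexpression (SD, n = 3 each).

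Trmt10b (r = 0.988) and Ints10 (0.984) also led for the Cldn25 entry, together with the septin gene Sept2 (0.986), which the tables list as a date and which was at 35.5 ± 0.963 FPKM in scrambled controls and 72.1 ± 7.80 in empty controls. Parp1, which encodes the DNA damage sensor PARP1, was most like Npepl1 (r = 0.986), at 41.0 ± 3.31 FPKM in scrambled controls, 68.5 ± 0.835 in knockdown and 62.3 ± 2.83 in empty controls. Asb8 (0.977), a gene of a SOCS box protein, and Ints10 (0.976) came next. None of the 3 genes most like Uchl3, the Cldn25 entry or Npepl1 is on the G2/M list. That list holds only 54 of the 11224 genes, so its absence among so few shows little.

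Sapcd2 kept other company. Ube2c (r = 0.992), which encodes the ubiquitin-conjugating enzyme of the anaphase-promoting complex, and Spc25 (0.990), a kinetochore subunit gene, were most like it, followed by Jag2 (0.989), a Notch ligand gene. Ube2c stood at 47.0, 48.5 and 63.8 FPKM in scrambled controls, 125, 104 and 118 in knockdown, 87.9, 98.9 and 127 in empty controls and 84.3, 78.4 and 114 in overexpression. As in Sapcd2, library 3 was the highest in scrambled controls, empty controls and overexpression, and library 1 in knockdown. The genes most like Klhl30 were Slain2 (r = 0.974), which encodes a microtubule plus-end protein, Mmd (0.972) and Uxs1 (0.970), which encodes the enzyme that makes UDP-xylose. Slain2 stood at 54.0 ± 1.46 FPKM in knockdown and at 38.6 ± 1.84, 39.7 ± 3.91 and 37.5 ± 3.82 FPKM in scrambled controls, empty controls and overexpression (SD, n = 3 each).

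**Figure D3:**
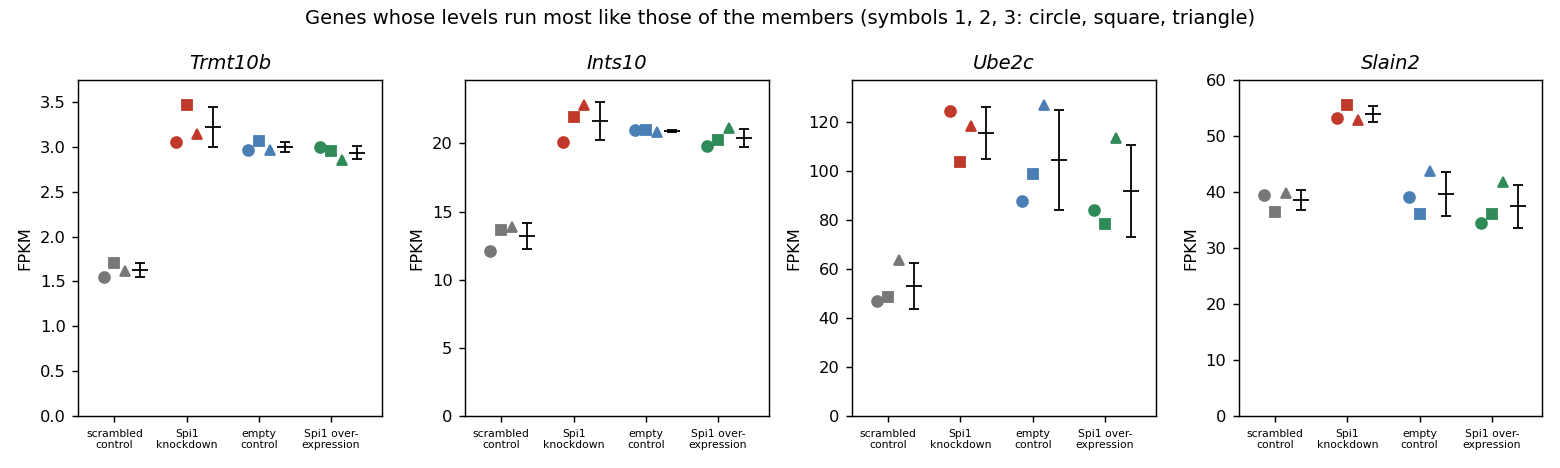
Level in FPKM (vertical axis, from 0) of Trmt10b, Ints10, Ube2c and Slain2 in the 4 groups, with a symbol per library and the mean and SD of 3 libraries. Trmt10b and Ints10 are lowest in scrambled controls, Ube2c scatters with library number as Sapcd2 does, and Slain2 is high in knockdown at 54.0 ± 1.46 FPKM.

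The mean of 54 G2/M genes was set beside each gene, because the scrambled controls were low in these too. Their summed level was 833 to 1176 FPKM in scrambled controls, 1758 to 1844 in knockdown, 1485 to 1935 in empty controls and 1277 to 1815 in overexpression. The scrambled pattern with overlap held in 38 of the 54, against 6.76% of all genes, and 53 of 54 passed as higher in knockdown, against 17.4% (limma, BH adjusted p under 0.05). When group means were removed, the 12 deviations of Sapcd2 had r = 0.933 with those of the G2/M mean. For Klhl30 this was 0.908, for Npepl1 0.614, for the Cldn25 entry 0.181 and for Uchl3 -0.11. The deviations of Uchl3 and the Cldn25 entry were small, with SDs of 0.07 each on the log2 scale, against 0.27 for Sapcd2, so a low r for them says little. For the high r of Sapcd2 and Klhl30 no background over all genes is given here. Libraries with the same number deviated together, at r = 0.345 to 0.845, so a high r is not shown to be particular to G2/M genes. The r of Klhl30 rested mostly on the libraries outside knockdown, with 25 to 92 reads each, because its knockdown libraries barely differed. What the G2/M level contributes to any of the 5 was not tested.

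**Figure D4:**
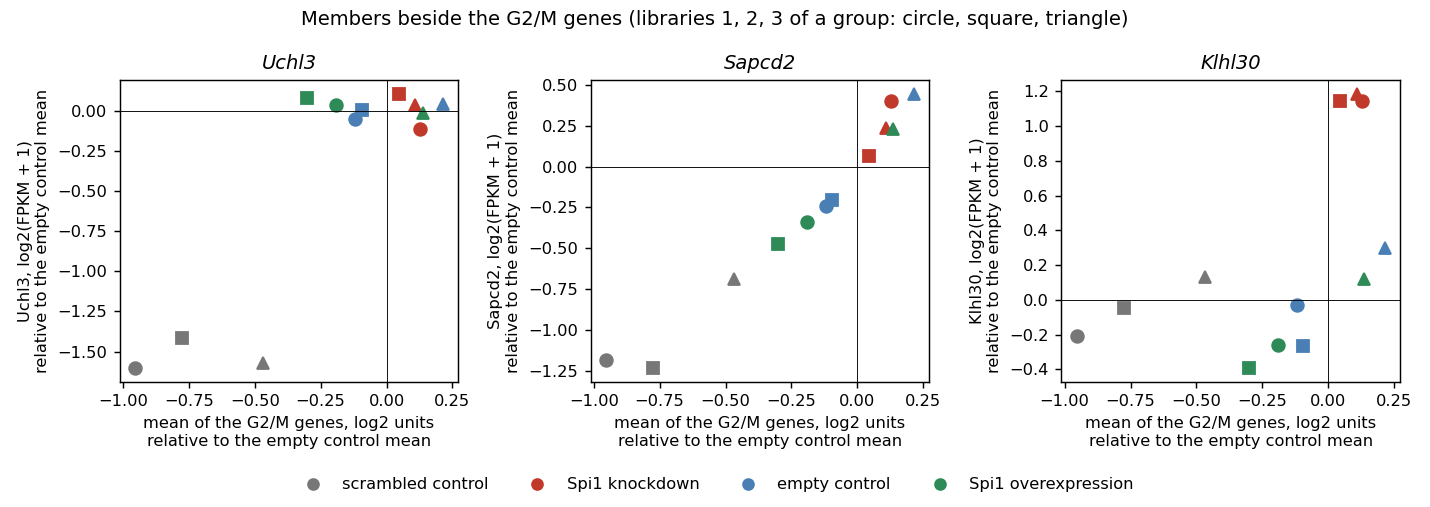
Mean of 54 G2/M genes (horizontal axis) against Uchl3, Sapcd2 and Klhl30 (vertical axes), both in log2 units relative to the mean of the empty controls, with a symbol per library coloured by group. Sapcd2 runs along the G2/M mean over all groups, Uchl3 is near 0 outside the scrambled controls, and in Klhl30 the 3 knockdown libraries stand apart, at 1.16 on average.

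Lists of genes from the pathways and families of the 5 were counted in the knockdown contrast. In it limma called 17.4% of 11214 genes higher and 8.86% lower (BH adjusted p under 0.05). Rises and falls in these lists are against scrambled controls alone. With median-of-ratios scaling 1248 genes were higher and 1454 lower, which turns the balance of calls, and with same-numbered libraries as blocks 3435 were higher and 1646 lower. In overexpression 0 of 11217 genes were called, so the 0 calls there in all lists that follow say nothing about them. Among ubiquitin and NEDD8 genes around Uchl3, 3 of 29 rose and 2 fell, with a median of 0.08 against 0.07 over all genes. Cul1, the scaffold gene of SCF ubiquitin ligases, rose by 0.37 and Cand1, which exchanges their substrate receptors, by 0.28, while Nub1, whose product drives NEDD8 to degradation, fell by 0.37 (limma, BH adjusted p = 0.0224, 0.0314 and 0.00761). In knockdown minus empty Cul1, Cand1 and Nub1 were at 0.21, 0.07 and -0.23. With the block 10 rose and 3 fell. The pattern of low scrambled controls with overlap held in 2 of the 29, near the 6.76% of all genes.

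Of 38 other deubiquitinase genes tested 6 rose, a share near the 17.4% of all genes, and 1 fell, a share below the 8.86% of all genes. With the block 10 rose and 4 fell, against 3435 and 1646 of all 11214 genes. Stambp, an endosomal deubiquitinase gene, rose by 0.75, Usp28 by 0.32 and Usp1, which acts in DNA repair, by 0.39, and Usp8 fell by 0.24 (limma, BH adjusted p = 0.00307, 0.0134, 0.0256 and 0.0264). In scrambled minus empty these 4 were at -0.66, -0.23, -0.32 and 0.05. In knockdown minus empty they were at 0.08, 0.09, 0.08 and -0.18. Claudin and tight junction genes were mostly silent, with 2 of 37 found members tested and 14 at 0 in all 12 libraries. Cldn12 fell by 0.29 (limma, BH adjusted p = 0.0318). Ocln, which encodes the junction protein occludin, was at 0 in all groups.

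Of 26 aminopeptidase and other exopeptidase genes 5 rose and 4 fell, against 17.4% and 8.86% of all genes, with a median of 0.09. With the block 9 rose and 4 fell, against 3435 and 1646 of all 11214 genes. The lysosomal cathepsin genes Ctsh and Ctsc fell by 0.44 and 0.50, Rnpep, an aminopeptidase gene, fell by 0.39 and Blmh, the bleomycin hydrolase gene, rose by 0.35 (limma, BH adjusted p = 0.00713, 0.00921, 0.0143 and 0.0134). In knockdown minus empty Ctsh, Ctsc, Rnpep and Blmh were at -0.41, -0.36, -0.33 and 0.08. Lap3, the leucine aminopeptidase closest in family to Npepl1, had 0.25 and did not pass (limma, BH adjusted p = 0.0600). Kelch-like and related genes rose in 6 of 28 members and fell in 1, against the same shares of all genes, with a median of 0.09. With the block 9 rose and 1 fell, against the same block counts of all genes. Klhl42 rose by 0.45, Klhl21, which acts in cell division, by 0.31, Ivns1abp by 0.29 and Kbtbd8 by 0.33 (limma, BH adjusted p = 0.00400, 0.0118, 0.0227 and 0.0355). In scrambled minus empty these genes were at -0.26, -0.29, -0.15 and -0.27. In knockdown minus empty they were at 0.19, 0.02, 0.14 and 0.06. Knockdown lay above both control groups in 1 of these 28, against 7.86% of all genes, a share near the background.

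Spindle orientation and polarity genes, a broad list set around Sapcd2, rose in 8 of 24 members and fell in 1. Over all genes the shares were 17.4% and 8.86%. The median of the list was 0.12. With the block 10 rose and 1 fell, against 3435 and 1646 of all 11214 genes. Aurka and its activator genes Tpx2 and Bora rose by 0.91, 0.81 and 0.63, and Prkci, an atypical protein kinase C gene of cell polarity, by 0.70 (limma, BH adjusted p = 0.00520, 0.00417, 0.00712 and 0.00286). In scrambled minus empty Aurka, Tpx2, Bora and Prkci were at -0.77, -0.73, -0.56 and -0.65. In knockdown minus empty they were at 0.14, 0.08, 0.07 and 0.05, so most of each rise was also a difference between the controls. Scrambled controls lay below the other 3 groups in 5 of the 24, against 8.34% of all genes and 40 of the 54 G2/M genes. Aurka and Tpx2 are also on the G2/M list.

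The nearest gene with an entry in the tables was looked up on each side of the 5. Of these 10 neighbours 5 averaged 1 FPKM or more. Scrambled controls lay below the other groups in 0 of the 5, against 8.34% of all genes, and so few genes show nothing about the neighbourhood. Commd6, before Uchl3, was at 28.1 ± 0.677 FPKM in scrambled controls, 24.5 ± 0.534 in knockdown and 27.1 ± 5.24 in empty controls (SD, n = 3 each), and fell by 0.19 in knockdown (limma, BH adjusted p = 0.0481). Stx16, 10578 bases before Npepl1 on the same strand, was at 27.8 ± 1.09, 24.9 ± 1.66 and 27.5 ± 2.98 FPKM in these groups. Espnl, which ends 2710 bases before Klhl30 on the same strand, was at 6.59 ± 0.400 FPKM in scrambled controls, 7.11 ± 0.438 in knockdown and 6.51 ± 1.52 in empty controls (SD, n = 3 each), with a log2 fold change of 0.10 (limma, BH adjusted p = 0.345). Ilkap, on its other side, had its lowest mean in scrambled controls, at 19.7 ± 2.19 FPKM against 24.7 ± 2.88 in knockdown, 22.9 ± 2.69 in empty controls and 22.5 ± 3.91 in overexpression (SD, n = 3 each). Its log2 fold change in knockdown was 0.31 (limma, BH adjusted p = 0.0719), and that of Uap1l1, next to Sapcd2, was -0.02 (limma, BH adjusted p = 0.882).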

How the data were processed

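RNA of BV2 cells was measured in 12 libraries in 4 groups of 3. Groups came from the treatment labels and numbers from the titles. Nothing in the labels says that the 3 libraries of a group are separate cultures. The p-values therefore describe library-to-library spread, possibly technical. The authors deposited 2 tables of FPKM. The unit was read from the values, which are whole multiples of 1 step per gene. Per the labels, libraries were TruSeq v2 and single reads of 100 bases. STAR 2.5.2a, featureCounts, DESeq2 1.14, CASAVA 1.8.2, bcl2fastq and mm10 appear in the submitters' processing notes without roles. The annotation is not given in the sources used here.

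Reads were recovered from the steps for 17838 of 17838 entries above 0. Of the 14114 above 0 in 10 or more libraries, 14114 gave a whole length within 0.01 base. Each experiment was fitted alone on log2(FPKM + 1) with limma 3.58.1 (R 4.3.3), for genes averaging 1 FPKM or more, with BH adjustment over all of them and no block. The fits were tested on simulated data. Differences between experiments are differences of group means, with no test. The members and lists were chosen with earlier results of these data known. Named genes are the 5, Spi1, the 3 most correlated genes of each by Pearson r without predicted genes, clone names or each other, the nearest entry on each side, up to 4 called members per list, or 2 that did not pass, and up to 10 genes high over both controls. Of 11 lists, 4 are marker lists. Adgre1 was matched as Emr1. Values of 2 genes that this rule names are not reported here. Libraries with the same number deviated together (r = 0.397, 0.540 and 0.345 in the knockdown and 0.791, 0.845 and 0.513 in the overexpression experiment, all over 0.1), so numbers were treated as pairs in an alternative fit. Intervals cover the spread between libraries. Alternatives were the pseudocount, scaling, filter, block, limma-voom and leaving out each library.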

Additional observations from a re-analysis of the deposited data

How the results depend on the processing

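Pairing libraries by number (a block) gave 3435 genes higher and 1646 lower in knockdown, and 9 higher and 4 lower in overexpression. Blocking without the filter, a choice made after seeing the data, gave 3101 higher in knockdown and 0 in either direction in overexpression, where limma had 2220 genes at an unadjusted p under 0.05. The block made no call for the 4 members tested in overexpression, with Sapcd2 nearest at an unadjusted p of 0.0103 and an adjusted p of 0.234 (limma). Median-of-ratios scaling gave 1248 genes higher in knockdown and moved Npepl1 in knockdown minus scrambled from 0.89 to 0.81. A pseudocount of 0.1 FPKM moved Klhl30 from 1.20 to 1.96 over scrambled and from 1.16 to 1.90 over empty controls, and the Cldn25 entry from -1.01 to -1.11 in scrambled minus empty. The other 76 alternatives stayed within the spread of the libraries, on the same side of the threshold, or within 1.5 times the count.

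Leaving out single libraries gave 910 to 1510 genes higher in knockdown, lowest without knockdown library 3, with 1280 without scrambled control 1 and 1232 and 1112 without knockdown 1 and 2. It gave 548 to 782 lower, with 548 and 596 without knockdown 3 and 2, and 932 to 1433 genes with knockdown above both control groups, where fewer libraries make separation easier by construction. The members' ranges over scrambled controls were 1.49 to 1.60 for Uchl3, 1.04 to 1.17 for the Cldn25 entry, 0.85 to 0.93 for Npepl1, 1.12 to 1.29 for Klhl30 and 1.17 to 1.44 for Sapcd2. Over empty controls they were -0.04 to 0.07, 0.04 to 0.17, 0.13 to 0.22, 1.02 to 1.31 and 0.11 to 0.46 in the same order. Klhl30 rests on 25 to 92 reads per library outside knockdown, so differences between those libraries are near the limit of the depth.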
